A study of Mus musculus with 9 samples.

Results

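Voltage-gated sodium, potassium, calcium and HCN channel genes were followed in mouse cortex shortly before birth. Members were the rows whose symbol names a sodium channel alpha or beta subunit (Scn), a voltage-gated potassium channel subunit (Kcna, Kcnb, Kcnc, Kcnd, Kcnf, Kcng, Kcnh, Kcnq, Kcns, Kcnv), a calcium channel alpha subunit (Cacna1) or an HCN channel (Hcn), with a mean normalized count of at least 10 over the 9 libraries. Of 18820 rows, 66 matched by symbol and 59 passed the mean, out of 15069 genes of the table that did. The 7 rows under the minimum were Cacna1s (mean 7.70), Scn10a (5.41), Scn11a (5.35), Scn7a (3.00), Kcng4 (2.96), Scn4a (2.30) and Kcna7 (0.70). The members closest to the minimum on the other side were Cacna1f, the retinal calcium channel, and the sodium channel beta gene Scn4b.

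The study sequenced polyadenylated RNA from E18.5 cortex (embryonic day 18.5) of the C57BL/6J strain. It holds 3 wild-type (WT) libraries, 3 libraries heterozygous for a Cyfip2 mutation (Het) and 3 libraries labelled as the Cyfip2 knockout (KO). Cyfip2 is part of the WAVE complex, which drives branched actin assembly. The mutant allele is not described in the labels. Whether each library is its own embryo is not stated either, and the p-values then reflect only how much these libraries vary, which may be technical.

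Voltage-gated channels open or close when the membrane potential changes, and together they set how a neuron fires. Sodium channels carry the upstroke of the action potential, potassium channels repolarize the membrane and set its firing pattern, calcium channels couple voltage to calcium entry and transmitter release, and HCN channels pass a depolarizing current at negative potentials. Each family has several paralogs, and young neurons are known to use a different mixture of them from adult neurons, with Scn3a and Scn2a prominent before birth and Scn1a and Scn8a gaining later.

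Sodium channel alpha genes also switch between alternative exons during development. A table of 1 value per gene sums over those forms, so the isoform use reported here is the balance between paralogous genes.

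Cyfip2 was checked in every library, since it tests the labels. As normalized counts (counts divided by a size factor of the library) it stood at 10169, 10345 and 11174 in WT, 8969, 9779 and 9882 in Het and 7900, 7522 and 8255 in KO, so the genotypes did not overlap and KO kept most of the signal. Fndc9, which lies within Cyfip2, was between 29.4 and 64.6 in WT, 17.5 and 27.4 in Het and 0.914 and 4.5 in KO. Cortical identity was plain in all 9 libraries: the summed level of 5 cortical excitatory markers (Neurod6, Tbr1, Emx1, Bcl11b and Fezf2) was 46184 to 49820 in WT, 47916 to 53282 in Het and 42820 to 52841 in KO. The libraries differed in other tissue. Cdhr1, a gene of olfactory bulb projection neurons, stood at 2230 (WT replicate 3), 3436 (Het replicate 1), 3237 (KO replicate 1) and 2138 (KO replicate 2) in 4 libraries, and ranged from 21.8 to 53.1 elsewhere. The Y-linked gene Ddx3y was listed at 0 in Het replicate 1 and KO replicates 1 and 2 and was above 1000 in the other 6, so the sexes were not balanced over genotypes. In Het replicate 3 the summed level of the 6 meningeal fibroblast markers was 147, against 3870 to 9079 in the other 8 libraries. Because RNA came from whole tissue, fewer cells of a type and less RNA per cell cannot be told apart.

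Levels between genes were compared as normalized counts per kilobase (kb) of annotated exon. On this scale the highest mean over the 9 libraries was that of Scn3b (1422 per kb), which encodes a sodium channel beta subunit, followed by the T-type calcium channel Cacna1h (1058). The N-type calcium channel Cacna1b (681) and Hcn3 (597) were also among the highest. Scn3b was above Cacna1h in 9 of 9 libraries, Cacna1b above Hcn3 in 9 of 9 and Hcn3 above Scn3a in 9 of 9. After Hcn3 came Scn3a (471), Cacna1g (452), Cacna1e (452) and Scn2a (385), and Scn3a stood above Cacna1g in 6 of 9, so those 2 neighbours did not separate. The lowest level was that of Cacna1f (1.2), and Scn4b (4.32), Kcnh6 (7.05) and Kcng2 (8.90) were also low. The order depends on which length is used. Per kb of the longest coding sequence Scn3b (12036) still led, and Kcnq3 (1903), Cacna1e (1672), Kcnc1 (1541) and Kcnd3 (1484) passed Cacna1h (1460).

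**Figure D1:**
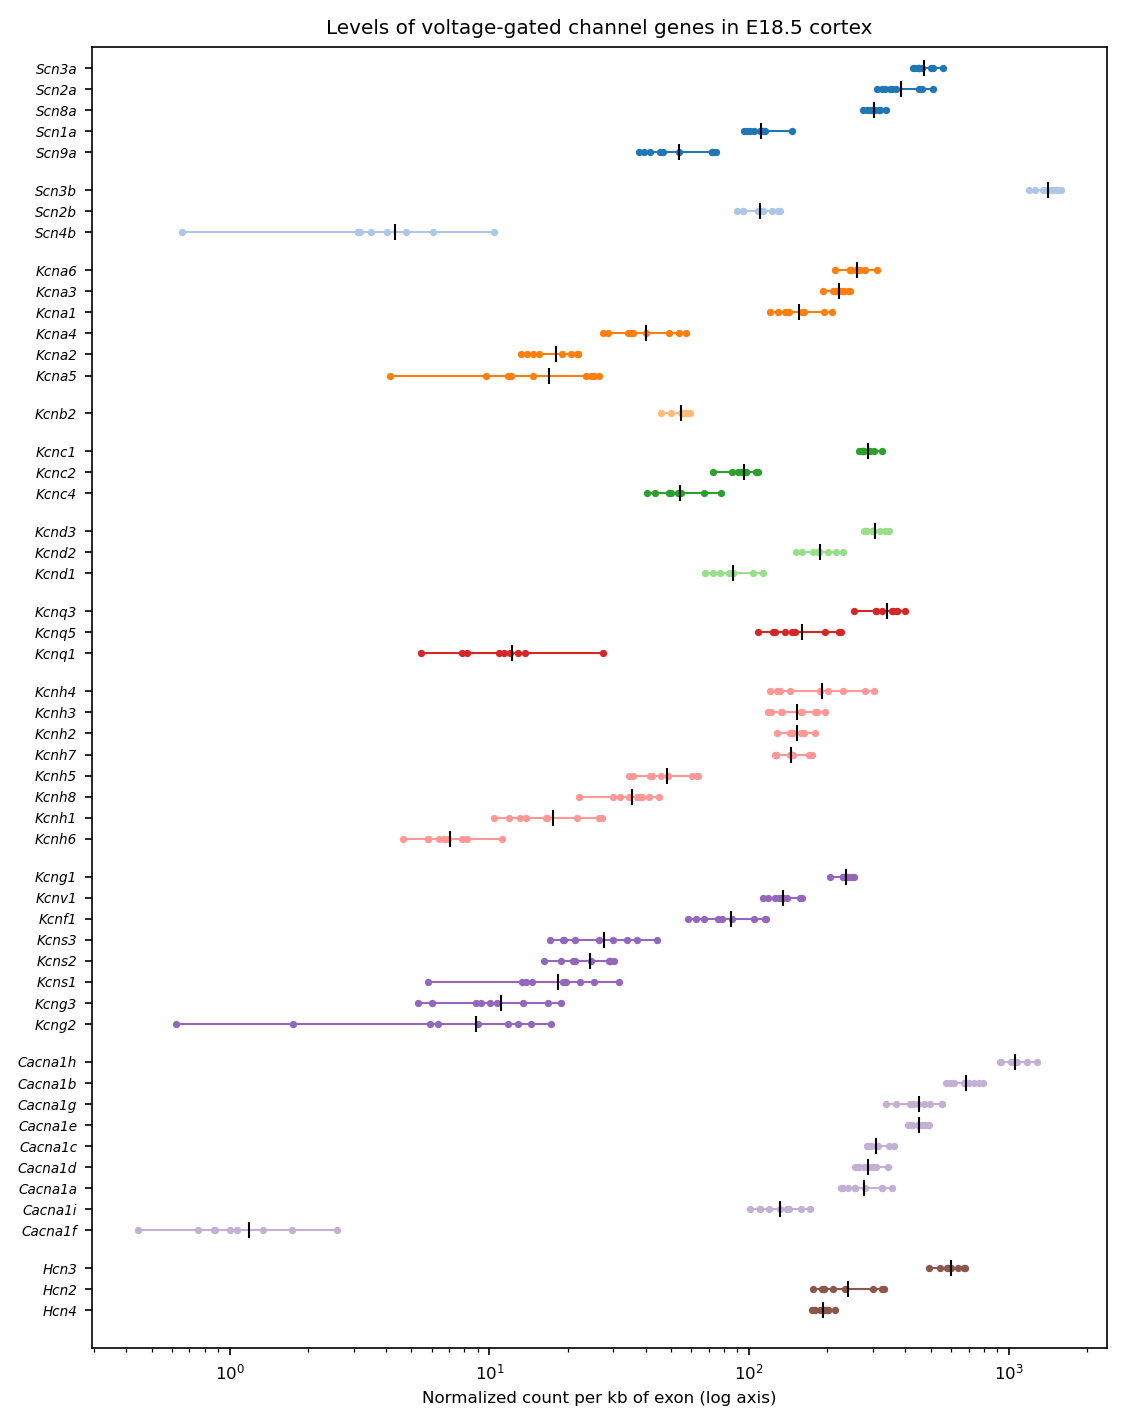
Level of 52 of the 59 channel genes as normalized count per kb of exon (log axis), grouped by family. Points are the 9 libraries, lines span their range and the black tick is the mean. Scn3b and Cacna1h sit highest and Cacna1f lowest.

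Among the sodium channel alpha subunits, which form the pore, Scn3a led with a share of 35.5% ± 1.5 (SD over 9 libraries) of the family's summed level per kb. Scn2a held 28.8% ± 3.0, Scn8a 22.9% ± 1.2, Scn1a 8.4% ± 1.3 and Scn9a 4.0% ± 0.8. The embryonic pair Scn3a and Scn2a was therefore the main part of the family in each genotype, and Scn1a, the channel best known from inhibitory neurons of the mature brain, was a minor part. With the longest coding length the order of the top members was kept, at 34.1%, 27.5% and 27.3%, and Scn2a and Scn8a came close together.

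Scn3a was at 5791, 5612 and 5549 in the WT libraries, 5341, 5568 and 6922 in Het and 5429, 6361 and 6265 in KO. The genotypes overlapped, with Het replicate 3 highest. Scn2a was at 4517, 4437 and 5763 in WT, 4152, 4245 and 5920 in Het and 3943, 4672 and 6486 in KO. Again the genotypes overlapped, and replicate 3 was the highest library of each genotype. Scn8a, the channel that later dominates the axon initial segment and nodes, varied least of all members, from 4342 in WT replicate 2 to 5296 in Het replicate 3, with an SD of 0.09 on the log2 scale. In KO against WT the log2 difference was 0.09 ± 0.10 (SE) for Scn3a, 0.02 ± 0.20 for Scn2a and 0.05 ± 0.08 for Scn8a.

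The log2 ratio of Scn3a to Scn2a per kb was 0.39, 0.37 and -0.02 in the WT libraries, 0.39, 0.42 and 0.26 in Het and 0.49, 0.48 and -0.02 in KO. Scn3a exceeded Scn2a in 7 of 9 libraries, and the ratio was close to 0 in replicate 3 of WT and KO. KO differed from WT by 0.07 (exact permutation p = 0.5) and Het from WT by 0.11 (exact p = 0.5), which is less than the spread between WT libraries (SD 0.23). For Scn8a to Scn2a the KO minus WT difference was 0.03 (exact p = 0.9). With 3 libraries against 3 the smallest two-sided p is 0.10, and after adjustment over the 5 ratio comparisons no p was below 0.833. The sign of these small differences is not stable: Scn3a to Scn2a in KO against WT became -0.06 without WT replicate 3, -0.02 without KO replicate 1 and -0.01 without KO replicate 2, and it was -0.40 without the 4 libraries of high Cdhr1, which leaves 1 KO library.

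Beta subunits, which steer the trafficking and gating of the alpha subunits, were almost entirely Scn3b, with a share of 85.2% ± 1.3 (90.9% by coding length). Scn3b was at 7428, 7911 and 8469 in WT, 6559, 7392 and 8141 in Het and 6916, 8663 and 8388 in KO, and the genotypes overlapped. Scn2b held 6.6%. Scn4b was at 15.6, 17.5 and 30.2 in WT, 23.7, 15.6 and 3.26 in Het and 52.0, 20.0 and 15.8 in KO, with its lowest value in Het replicate 3 and its highest in KO replicate 1.

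**Figure D2:**
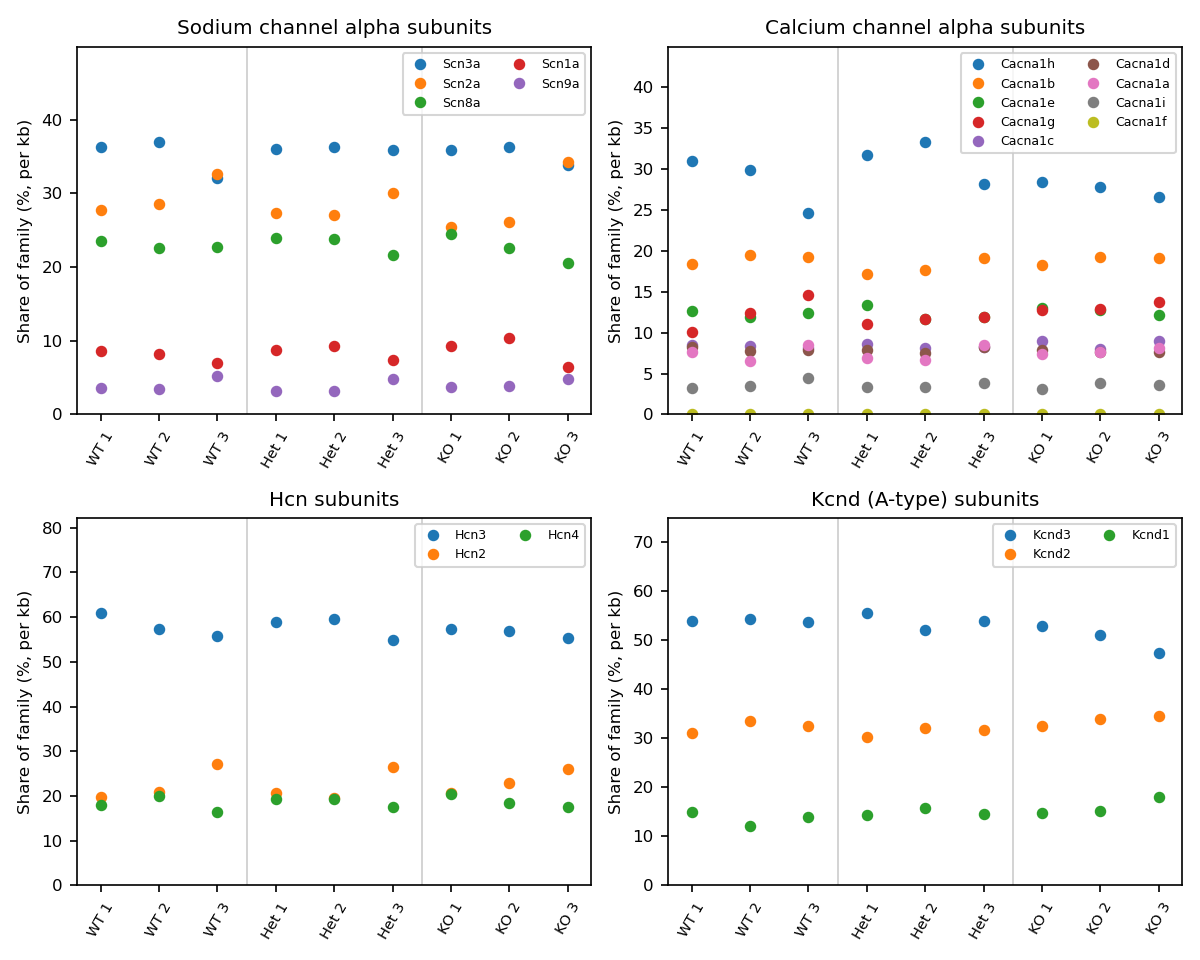
Share of members in the summed level per kb of their family (percent), for sodium channel alpha, calcium channel alpha, Hcn and Kcnd genes, in each of the 9 libraries. Scn3a, Cacna1h, Hcn3 and Kcnd3 have the highest mean shares, and in KO replicate 3 the Scn2a share is at its highest and the Scn8a share at its lowest.

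Shaker-type (Kcna) subunits form low-threshold delayed rectifiers of axons, and here Kcna6 (36.4% ± 2.1) and Kcna3 (31.4% ± 2.9) stood above Kcna1 (21.7% ± 3.1). Kcna2, a main axonal subunit of the adult brain, held 2.5% and the A-type subunit Kcna4 5.6%. Kcna6 was at 1278, 1539 and 1569 in WT, 1459, 1459 and 1854 in Het and 1471, 1587 and 1658 in KO. Kcna3 lay between 366 and 466 in all 9 libraries. Neither separated the genotypes. By coding length Kcna6 rose to 48.4% of the family and Kcna1 (24.8%) passed Kcna3 (13.4%). Kcna2 (144 per kb of the longest coding sequence) then stood above Kcna4 (98.7).

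The delayed rectifier Kcnb2 ranged from 694 in Het replicate 1 to 897 in Het replicate 2, so both of its extremes fell within 1 genotype. In the fast-spiking Kcnc family Kcnc1 held 44.4% ± 1.8. Kcnc1 was between 2577 and 2854 in WT, 2602 and 3081 in Het and 2507 and 2743 in KO, and these ranges overlapped.

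Kcnc4 was the smallest part of its family, with 8.4%. It was at 184, 200 and 246 in WT, 148, 159 and 180 in Het and 196, 287 and 196 in KO. The 3 Het libraries lay below every WT and every KO library, and the WT and KO libraries overlapped. The log2 difference was -0.36 ± 0.19 (SE) in Het against WT (limma, unadjusted p = 0.0935) and 0.46 ± 0.19 in KO against Het (unadjusted p = 0.0426, adjusted p = 0.942). The KO against Het difference of Kcnc4 was 0.27 without KO replicate 2.

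Kcnd subunits carry the somatodendritic A-type current, and Kcnd3 (52.7% ± 2.4) led Kcnd2 (32.4% ± 1.4) and Kcnd1 (14.9% ± 1.6). Kcnd3 was at 2664, 2877 and 3205 in WT, 2680, 2727 and 3052 in Het and 2883, 3313 and 2841 in KO, with overlap between genotypes. Kcnd2 was at 825, 957 and 1041 in WT, 784, 904 and 961 in Het and 951, 1183 and 1117 in KO. The KO libraries were at the upper end without being separate. Kcnd1 was at 410, 357 and 460 in WT, 384, 457 and 454 in Het and 443, 546 and 598 in KO, where the lowest KO library lay within the WT range. Its log2 difference of 0.37 ± 0.15 in KO against WT had the smallest p of any member (limma, unadjusted p = 0.0345) and did not pass after adjustment (adjusted p = 0.9998). Kcnd2 differed by 0.20 ± 0.12 from WT and by 0.29 ± 0.12 from Het (unadjusted p = 0.0406). The Kcnd2 difference from WT was 0.11 without WT replicate 1. All 3 Kcnd genes had a positive log2 difference in KO against WT and in KO against Het, comparisons that share the KO libraries. Over all genes 48.4% and 50.4% were positive. The KO against WT count of Kcnd genes fell to 2 of 3 without WT replicate 1 or without KO replicate 2.

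Kcnq subunits form the M-current, which restrains repetitive firing, and Kcnq3 held 19.0% ± 3.1 of the family, Kcnq5 8.8% ± 2.0 and Kcnq1 0.7% ± 0.4. Kcnq3 was at 5452, 5222 and 4549 in WT, 4776, 5458 and 4511 in Het and 5287, 5864 and 3734 in KO. It was lowest in replicate 3 of every genotype, and the genotypes overlapped. Kcnq1, a channel of heart and epithelia, was at 33.6, 49.2 and 56.0 in WT, 46.5, 32.2 and 22.4 in Het and 112, 52.7 and 44.5 in KO. Its log2 difference of 0.97 ± 0.41 in KO against Het (unadjusted p = 0.0435) came with KO replicate 1 far above the other 8 libraries, and it was 0.57 without that library.

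The Kcnh family (eag, erg and elk channels) had no dominant member per kb of exon, and its leader depended on the length used. Per kb of exon Kcnh4 held 24.9% ± 5.8, Kcnh3 20.8%, Kcnh2 20.4% and Kcnh7 19.4%, whereas by coding length Kcnh7 held 40.8%. Kcnh1 (2.3%) and Kcnh6 (0.9%) were the smallest parts per kb of exon. Kcnh4 was at 518, 475 and 1194 in WT, 567, 508 and 1104 in Het and 742, 909 and 794 in KO, so replicate 3 stood apart in WT and Het but not in KO. Kcnh2 was at 697, 622 and 774 in WT, 785, 706 and 869 in Het and 770, 711 and 712 in KO, and the log2 difference of Het against WT was 0.17 ± 0.11, and 0.09 without WT replicate 2 and 0.10 without Het replicate 3. Kcnh5 was at 185, 140 and 244 in WT, 256, 168 and 257 in Het and 145, 171 and 198 in KO, and KO differed from Het by -0.39 ± 0.25 (-0.59 without Het replicate 2). In both genes the genotypes overlapped.

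Silent modifier subunits (Kcnf, Kcng, Kcns and Kcnv) form no channel alone and combine with Kcnb subunits. Kcng1 held 43.3% ± 3.5 of their summed level per kb, Kcnv1 24.7% ± 2.4 and Kcnf1 15.4% ± 3.0. Kcng1 was steady, between 1037 and 1077 in WT, 1063 and 1142 in Het and 927 and 1125 in KO. Kcng2 had the largest spread of all members, with an SD of 1.41 on the log2 scale. It was at 27.0, 43.4 and 35.4 in WT, 18.9, 17.7 and 5.25 in Het and 38.4, 51.5 and 1.86 in KO. The Het libraries lay below WT without overlap (log2 difference -1.43 ± 1.01, unadjusted p = 0.194). The KO against WT difference was -0.98 ± 1.01, and it was 0.35 without KO replicate 3, the lowest library. Kcns3 was at 67.7, 94.3 and 117 in WT, 60.6, 83.7 and 107 in Het and 61.6, 54.0 and 140 in KO. Its KO against WT difference of -0.22 ± 0.39 was 0.03 without KO replicate 2 and 0.41 with sex as a covariate.

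Calcium channel alpha subunits were led per kb of exon by the T-type channel Cacna1h (29.1% ± 2.7), which supports low-threshold bursting, followed by Cacna1b (18.6% ± 0.8), the R-type Cacna1e (12.4% ± 0.6) and the T-type Cacna1g (12.4% ± 1.4). The L-type genes Cacna1c (8.5%) and Cacna1d (7.9%) and the P/Q-type gene Cacna1a (7.5%), which comes to serve fast transmission in mature synapses, were lower. By coding length Cacna1e led with 24.2% and Cacna1h held 21.1%. Cacna1h was at 10066, 10052 and 9143 in WT, 10354, 12512 and 11449 in Het and 9015, 9911 and 10459 in KO. Every Het library was above every WT library, and the lowest Het library was just below the highest KO library. The log2 difference was 0.23 ± 0.08 in Het against WT (limma, unadjusted p = 0.0249, adjusted p = 0.9998) and -0.22 ± 0.08 in KO against Het (unadjusted p = 0.0274, adjusted p = 0.942), while KO and WT had nearly equal means of 9795 ± 729 and 9753 ± 529 (SD, n = 3).

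All 9 Cacna1 members had a positive log2 difference in Het against WT, with a median of 0.05 and a range from 0.01 to 0.23. Over all genes 46.2% were positive. Of the 9 members, 7 were positive after quantile normalisation, 6 after upper-quartile rescaling and 4 without Het replicate 3. Other families also ran in a single direction in some comparisons. Cacna1c was at 6041, 6109 and 6513 in WT, 6084, 6648 and 7304 in Het and 6224, 6213 and 7640 in KO. Per kb of exon the L-type genes were nearly level: the log2 ratio of Cacna1d to Cacna1c lay between -0.22 and -0.01 in all 9 libraries, and KO differed from WT by -0.10 (exact permutation p = 0.2). By coding length they were not level, with Cacna1c at 14.2% of the family and Cacna1d at 8.0%. Cacna1f was at 9.13, 12.2 and 4.03 in WT, 7.92, 9.71 and 6.84 in Het and 15.7, 23.6 and 8.0 in KO. Its KO against WT difference of 0.82 ± 0.50 turned to -0.36 without the 4 libraries of high Cdhr1.

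Hcn3 led the HCN channels with 57.5% ± 2.0, ahead of Hcn2 (22.7% ± 3.1) and Hcn4 (18.6% ± 1.4). Per kb of the longest coding sequence Hcn4 (326) stood above Hcn2 (295). Hcn3 was at 2490, 2397 and 2817 in WT, 2262, 2471 and 2789 in Het and 2039, 2418 and 2647 in KO. The genotypes overlapped, and the KO against WT difference of -0.12 ± 0.11 was 0.03 with sex as a covariate and 0.12 without the 4 libraries of high Cdhr1.

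Across all members no genotype difference passed the test. limma with Benjamini-Hochberg adjustment called 0 of 59 members in KO against WT, in Het against WT and in KO against Het, where the background over 15069 genes was also 0%. The same fit did not call Cyfip2 itself in KO against WT (-0.42 ± 0.06, limma adjusted p = 0.678). Nor did it call Fndc9 (-3.64 ± 0.48, limma adjusted p = 0.589). A missing call therefore does not show that a gene was unchanged. At an unadjusted p under 0.05, 1 member (Kcnd1) was found in KO against WT, where 1.18% of all genes were, 1 (Cacna1h) in Het against WT, where 1.61% were, and 5 (Cacna1h, Kcnd2, Kcnc4, Kcnq1 and Kcna4) in KO against Het, where 3.59% were. The smallest adjusted p of a member was 0.9998, 0.9998 and 0.942. Same-numbered Het and KO libraries deviated together, with correlations of 0.453, 0.104 and 0.469 over all genes, so KO was also compared with Het in pairs, an alternative added after seeing the data. Of the members picked by their unadjusted p above, Kcnd2, Kcna4, Kcnc4 and Kcnq1 were higher in KO in 3 of 3 pairs. Cacna1h was lower in 3 of 3. Kcnd1 and Kcnd3, added beside them, were higher in 3 of 3 and 2 of 3. Because the picks came from the same libraries, this agreement is no further support. The share of all genes with such agreement was not counted. The paired fit called 0 genes, the smallest adjusted p of a member was 0.55, and at an unadjusted p under 0.05 there were 10 of 59 members, against 8.61% of all genes. Het and KO replicate 1 were also alike in Ddx3y and Cdhr1, as were Het and KO replicate 3.

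In KO against WT 40 of 59 members had a higher value, against 48.4% of all genes, and their median log2 difference was 0.07 against -0.0042 over all genes. In Het against WT 31 of 59 were higher (46.2% of all genes) with a median of 0.01. In KO against Het 39 of 59 were higher (50.4%) with a median of 0.06. With the libraries left out in turn the KO against WT count moved between 33 and 46.

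The precision of these comparisons can be read from the 95% intervals. In KO against WT the interval lay within a log2 difference of 1 in either direction for 48 of 59 members, and within 0.5 for 30. The corresponding counts were 49 and 32 in Het against WT and 46 and 27 in KO against Het. Wide intervals belonged to the low members, such as Scn4b (-1.26 to 1.90 in KO against WT) and Kcng2 (-3.28 to 1.33), and narrow ones to the main subunits, such as Scn8a (-0.12 to 0.22) and Cacna1h (-0.19 to 0.20). Members with libraries that did not overlap numbered 0 of 59 in KO against WT (6.46% of all genes), 3 in Het against WT (Cacna1h higher, Kcnc4 and Kcng2 lower, against 6.67%) and 1 in KO against Het (Kcnc4, against 7.82%).

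**Figure D3:**
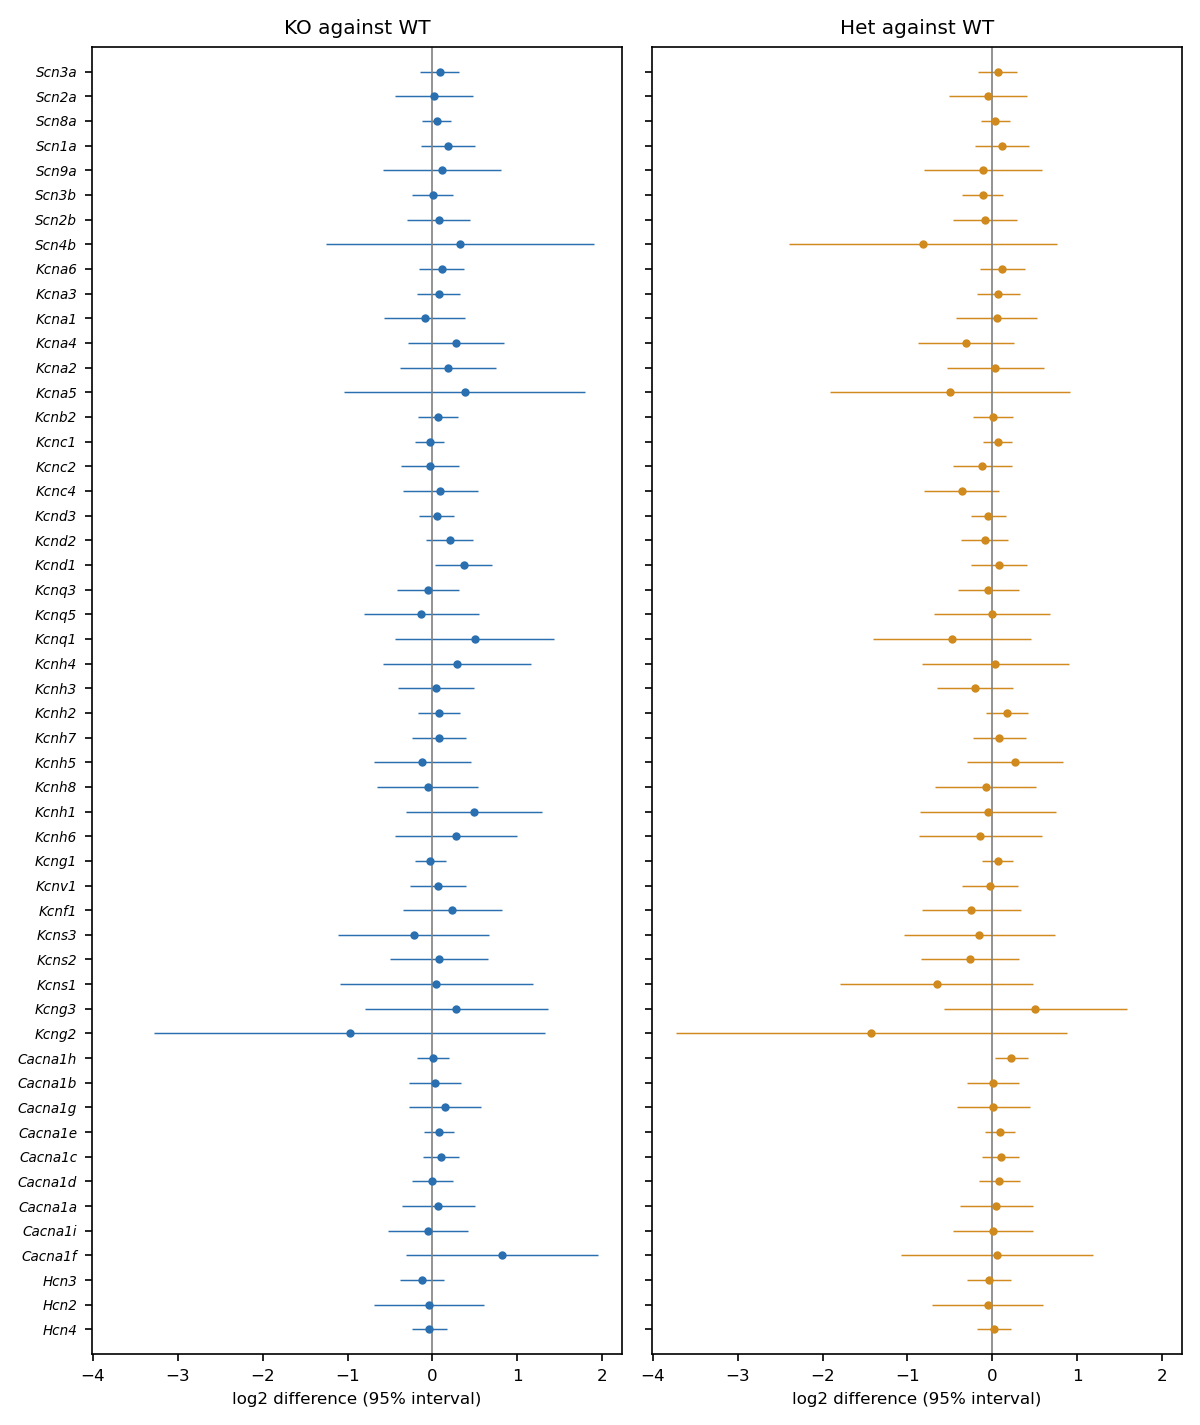
log2 difference of 52 members with their 95% intervals (limma), for KO against WT (left) and Het against WT (right), in family order. Only Kcnd1 in KO and Cacna1h in Het have intervals that leave out 0, and neither passed after adjustment.

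The partners of these channels gave the same picture of no call. Of 36 genes for accessory subunits and scaffolds (Kcnab, Kcnip, Dpp, Kcne, Cacnb, Cacna2d, Fgf, ankyrin and related genes), 33 were tested and 0 were called in any genotype comparison. At an unadjusted p under 0.05 only Fgf13, an intracellular sodium channel partner, was found, at -0.23 ± 0.10 in Het against WT. The share of all genes at that level was 1.61% in Het against WT, 1.18% in KO against WT and 3.59% in KO against Het. Of 29 other potassium channel genes, 28 were tested and 0 were called. Kcnmb2, a beta subunit of the calcium-activated BK channel, was at 97.0, 131 and 136 in WT, 194, 157 and 218 in Het and 161, 188 and 182 in KO, so both mutant groups lay above WT without overlap (0.64 ± 0.19 and 0.56 ± 0.19, unadjusted p = 0.00796 and 0.0162). The 2 comparisons share the WT libraries. Over all genes, 6.67% did not overlap in Het against WT and 6.46% in KO against WT, in either direction. Kcnj11, the pore of ATP-sensitive channels, was at 643, 609 and 570 in WT, 567, 636 and 675 in Het and 447, 367 and 570 in KO, a log2 difference of -0.42 ± 0.15 in KO against WT (unadjusted p = 0.0256) with overlap at the highest KO library. Its mean was 607 in WT, 626 in Het and 461 in KO, and the highest KO library also overlapped Het.

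The channel genes varied more between libraries than an average gene. The median SD of log2 values over the 9 libraries was 0.239 for members and 0.144 for all genes tested, on a scale where low genes vary more. A pattern by library was noticed after the values were seen. For 21 of 59 members replicate 3 was the highest library of its genotype in all 3 genotypes, which held for 13.7% of all genes. The count was 24 after quantile normalisation (14.6% of all genes) and 19 after upper-quartile rescaling (11.4%). They included 7 of 9 calcium channel genes (Cacna1a, Cacna1b, Cacna1c, Cacna1d, Cacna1e, Cacna1g and Cacna1i), Scn2a, Scn9a, Scn2b, Hcn2, Hcn3, Kcnc1, Kcnc2 and Kcnq5. Replicate 3 was the lowest in all 3 genotypes for Kcnq3, Kcng3 and Cacna1f, against 12.2% of all genes. Replicate 1 was the lowest for 12 members (8.32% of all genes) and the highest for 1 (7.8%), and replicate 2 was the highest for 4 (4.93%) and the lowest for 2 (3.13%).

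Some marker sums followed the same order of libraries and others did not. The summed level of 5 general neuron markers was 145458, 146210 and 156875 in the WT libraries, 135924, 144647 and 174773 in Het and 130300, 140138 and 163862 in KO, highest in replicate 3 each time. The 4 progenitor markers summed to 7515, 6760 and 5807 in WT, 8303, 7677 and 5959 in Het and 8149, 6783 and 4663 in KO, lowest in replicate 3 each time. Within the general neuron list Tubb3 was highest in WT replicate 1 (96133, against 95079 in replicate 3) and Syt1 in KO replicate 2 (9303, against 7971). The cortical excitatory sum was highest in replicate 3 of Het (53282) and KO (52841) but in replicate 1 of WT (49820, against 47586). The 5 interneuron markers (Gad1, Gad2, Dlx1, Lhx6 and Sst) summed to 12715 in replicate 3 of WT, the highest of that genotype, and to 9843 and 8736 in replicate 3 of Het and KO, the lowest of theirs. The sum of 7 striatal projection neuron markers was highest in replicate 3 of WT (3835) and KO (3563). In Het it was highest in replicate 1 (3418, against 3244 in replicate 3). Ppp1r1b, Drd1 and Rgs9 were highest in replicate 3 of every genotype, and Drd2, Adora2a, Penk and Tac1 were not. The part of these marker levels in the channel values was not tested.

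**Figure D4:**
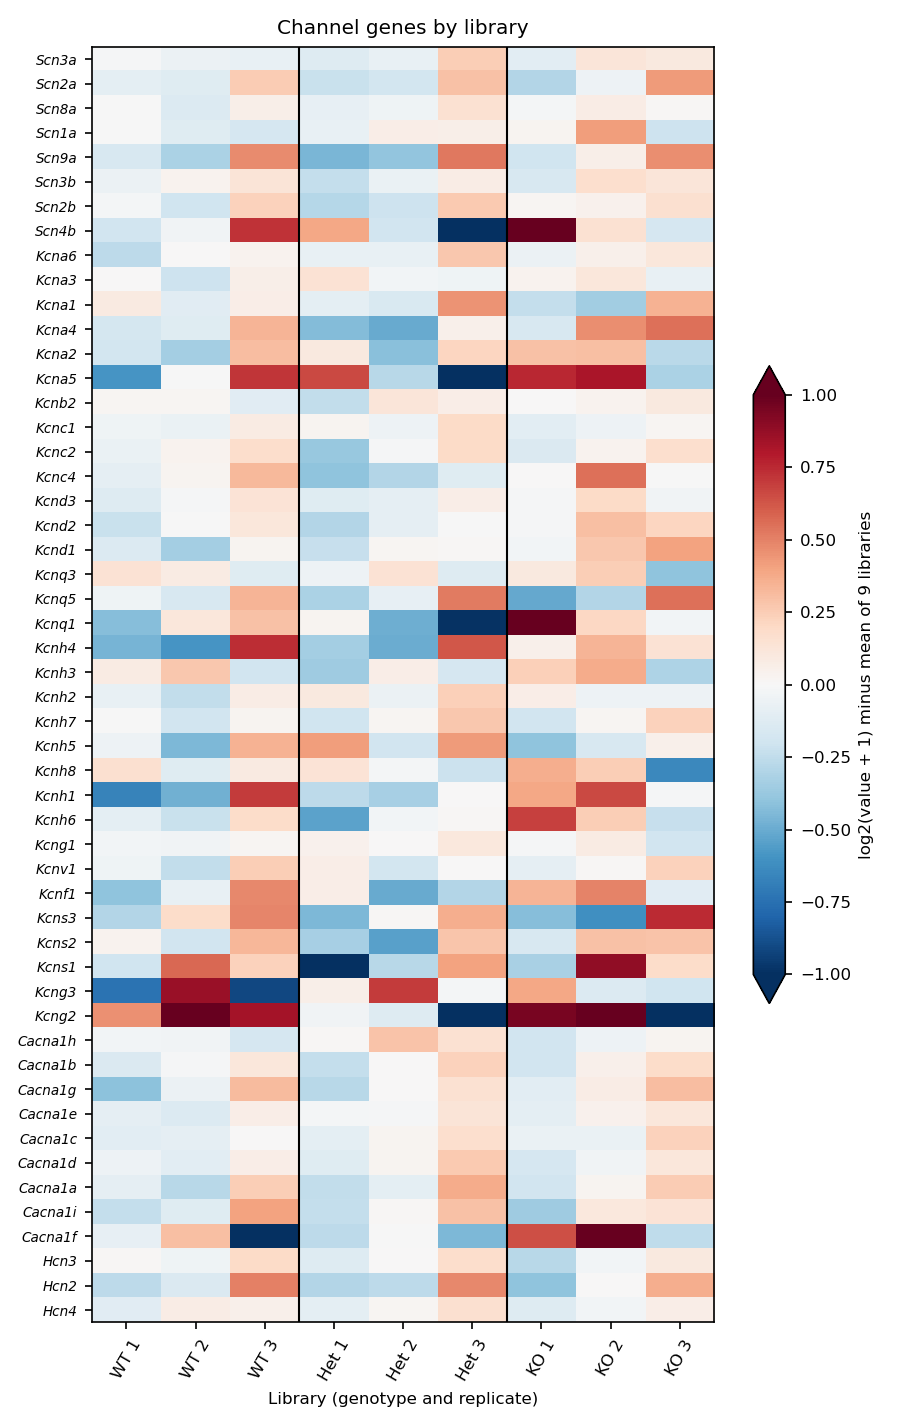
log2(value + 1) of 52 members in each library minus their mean over the 9 libraries (colour, limited at 1 in either direction), in family order. Many calcium, Hcn and Kcnc genes are highest in replicate 3 of each genotype, and low members such as Kcng2 vary most.

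Scn2a was followed most closely by Hcn2 (Pearson r = 0.95 of log2 values over 9 libraries), Kcnq5 (0.95) and Scn9a (0.93). Scn3a was most like Kcnh7 (0.83), Scn8a (0.77) and Cacna1d (0.77). These are descriptions over libraries that share tissue makeup and scaling. Scn2a and Hcn2 were each highest in replicate 3 of every genotype: Hcn2 was at 621, 672 and 1054 in WT, 608, 620 and 1039 in Het and 564, 747 and 958 in KO.

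The promoters of Scn2a and Hcn2 are shown because these genes moved together. They are the 250 bases before a RefSeq start (GRCm38.p6), with matches to the GC box GGGCGG or the TATA box TATAAA on either strand in capitals. The Scn2a promoter belongs to the downstream of its 2 starts in the table.
Scn2a promoter, chr2:65668436-65668685, plus strand: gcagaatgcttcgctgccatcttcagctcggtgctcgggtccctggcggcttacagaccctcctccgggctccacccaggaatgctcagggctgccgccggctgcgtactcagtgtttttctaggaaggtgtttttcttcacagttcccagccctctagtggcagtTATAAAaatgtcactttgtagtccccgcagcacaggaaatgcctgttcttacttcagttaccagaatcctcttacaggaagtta
Hcn2 promoter, chr10:79716384-79716633, plus strand: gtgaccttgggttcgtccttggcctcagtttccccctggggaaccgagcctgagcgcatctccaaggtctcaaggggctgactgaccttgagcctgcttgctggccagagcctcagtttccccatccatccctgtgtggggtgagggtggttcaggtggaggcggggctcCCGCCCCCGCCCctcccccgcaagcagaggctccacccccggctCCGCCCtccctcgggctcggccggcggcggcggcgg

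The Scn2a window shown holds 53.2% G and C with 1 TATA match and no GC box, the window of its upstream start holds 29.6% G and C with no match to either motif, and the Hcn2 window holds 70.4% G and C with 3 GC box matches. Promoters were found for 36 members, with 46 starts. A GC box match was present in 50% of them, against 32.7% of all 32851 promoters in the table, and a TATA match in 4.35%, against 12.4%. The median content of G and C was 62.4% for members and 52.4% for all, and it was not matched in this comparison. A match is a description of letters, and binding was not measured.

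The 4 libraries of high Cdhr1 were compared with the other 5 in a fit that kept genotype as a term. They are samples set apart by their RNA and not a group of the study. All 3 libraries without Ddx3y signal are among the 4, and the other 5 all have it, so within Het and KO the sex of the embryo and the Cdhr1 class cannot be told apart. With sex as a further covariate, an alternative chosen after seeing the data that leaves the contrast to the WT libraries, 1 gene and 0 members were called. The 8 olfactory bulb markers (Cdhr1, Tbx21, Eomes, Th, Calb2, Pcp4l1, Doc2g and Slc17a7) summed to 6832 to 9845 in WT, 5851 to 12112 in Het and 5173 to 12452 in KO. This sum includes Cdhr1, which defines the 4 libraries. Tbx21, Th, Calb2 and Slc17a7 were also higher in the 4 without overlap. Eomes, Pcp4l1 and Doc2g overlapped, with Doc2g at 610 to 682 in the 4 and 646 to 745 in the other 5. Other marker sums separated the same libraries. The interneuron sum was 12648 to 15983 in the 4 and 8736 to 11789 in the other 5, where Gad1 and Dlx1 were higher in the 4 without overlap and Lhx6 was lower (2837 to 3294 against 3379 to 3657). Gad2 and Sst overlapped, and Sst was lowest of all 9 libraries in Het replicate 1 (434). The meningeal sum was 5234 to 9079 against 147 to 5113. Of its markers Dcn, Slc13a4 and Foxc2 were higher in the 4 without overlap, and Col1a1, Lum and Mgp overlapped. The part of these cell types in the values below was not tested. limma called 50 genes higher and 0 lower, 0.332% of all genes, and 0 of 59 members. The gene count fell to 9 without Het replicate 1, 18 without KO replicate 3, 29 without KO replicate 2 and 32 without KO replicate 1. At an unadjusted p under 0.05 there were 9 members, 15.3%, against 9.43% of all genes.

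Kcnf1, a modifier subunit, was the closest to the threshold. In the order WT replicate 3, Het replicate 1, KO replicate 1 and KO replicate 2 it stood at 553, 413, 500 and 557, and the other 5 lay from 279 to 376, without overlap. Its log2 difference was 0.57 ± 0.11 (limma, adjusted p = 0.148), and the adjusted p was 0.0571 with the replicate block and 0.804 with sex as a covariate. Kcna5, a channel also found in vascular muscle, was at 70.2, 67.4, 72.1 and 75.4 against 11.9 to 42.2 (1.26 ± 0.34, adjusted p = 0.342). Kcna2 was at 262, 226, 259 and 261 against 158 to 245 (0.45 ± 0.16), and the libraries overlapped. Kcnh1 was at 199, 102, 160 and 193 against 76.3 to 122 (0.57 ± 0.25), with overlap at Het replicate 1. The Kcnh1 difference was 0.22 without WT replicate 3 and 0.91 without Het replicate 1.

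Together 5 of 59 members (among them Kcna3, Kcna5, Kcnf1 and Scn4b) were higher in the 4 libraries without overlap, against 4.35% of all genes, and none was lower, against 2.59% (6.95% in either direction). In the fit, 21 of 59 members had a positive log2 difference, against 47.6% of all genes, and 38 had a negative one. Members with the smallest p among those lower were main neuronal subunits with small differences: Cacna1h at -0.16 ± 0.05, Kcnb2 at -0.18 ± 0.07, Cacna1c at -0.13 ± 0.07 and Kcnh7 at -0.18 ± 0.11. The Kcnb2 value was -0.11 without Het replicate 1. Cacna1c moved to -0.25 without WT replicate 3 and -0.05 without KO replicate 3. Kcnh7 moved to -0.33 without WT replicate 3, -0.10 without Het replicate 1 and -0.11 without KO replicate 3. With sex as a covariate the signs of Cacna1c (0.10) and Kcnh7 (0.12) turned. Kcnh7 was at 2193, 1927 and 2242 in WT, 1913, 2224 and 2649 in Het and 1925, 2228 and 2579 in KO. Among the other potassium channels 1 of 28 was called, Kcnt1, a sodium-activated channel, at 1311, 1358, 1599 and 1493 in the 4 libraries and 701 to 868 in the others (0.83 ± 0.09, adjusted p = 0.0107). The Kcnt1 call was lost without Het replicate 1 (adjusted p = 0.102), KO replicate 2 (0.0539) or KO replicate 3 (0.101) and with sex as a covariate (0.69).

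Vascular and meningeal markers varied beside some of the low members. The lowest values of Scn4b (3.26), Kcna5 (11.9) and Kcnq1 (22.4) were all in Het replicate 3, where the meningeal markers were also lowest and the 6 pericyte and smooth muscle markers summed to 1892, against 2863 to 4393 elsewhere. The highest values of Scn4b (52.0) and Kcnq1 (112) were in KO replicate 1, where the meningeal sum (9079) and the pericyte sum (4393) were highest. Single markers differed from these sums. Higd1b was not lowest in Het replicate 3 (106, against 95.1 in Het replicate 2), and its highest value was in KO replicate 2 (180). Acta2 (423) and Abcc9 (1229) were highest in Het replicate 1. Of the meningeal markers, Slc13a4 (461) and Foxc2 (169) were highest in KO replicate 2 and Mgp (165) in WT replicate 3. Kcna5 was highest in KO replicate 2 (75.4). Other low members had their lowest value elsewhere. Kcng2 was lowest in KO replicate 3 (1.86), and Cacna1f (4.03) and Kcng3 (17.8) in WT replicate 3. Kcns1 (15.7) and Kcnh6 (16.4) were lowest in Het replicate 1. The part of vascular and meningeal tissue in the values was not tested.

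**Figure D5:**
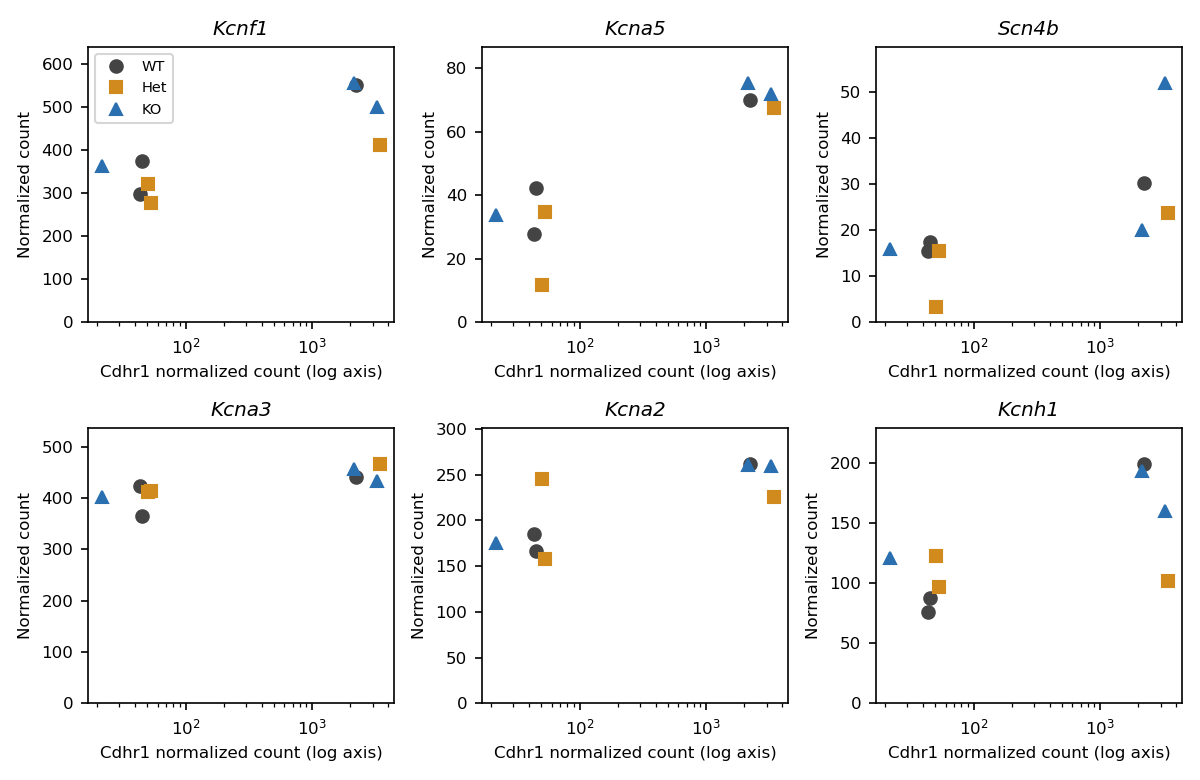
Normalized counts of Kcnf1, Kcna5, Scn4b, Kcna3, Kcna2 and Kcnh1 (vertical axes start at 0) against the normalized count of Cdhr1 (log axis) in the 9 libraries, with genotype as colour and shape. The 4 libraries of high Cdhr1 lie above the other 5 for each gene except Kcna2 and Kcnh1.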

How the data were processed

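RNA of 9 cortex libraries (3 each of WT, Het and KO) was analysed from 1 deposited table. It holds 1 signal value per gene and library, read here as gene counts that the authors scaled by DESeq2 size factors. That step is inferred from the name of the deposited table and from its fractional values with nearly equal totals. The tools given without a role per the submitters' processing notes are DESeq2 1.19.11, R 3.6.0 and Salmon 0.11.2, with the build GRCm38. Totals were 36.0 to 38.6 M (M, mega) per library after this scaling. Low values fell near multiples of 1 read, giving an approximate depth of 29.5 to 54.4 M reads per library. Only 60.8% to 78.2% of the values under 6 came within 0.1 of a whole read, so the count test that the design named for raw counts was not used.

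Symbols matched 18783 of 18820 rows. Genes whose mean reached 10 (15069) were taken as log2(value + 1), on which differences of low genes are understated, and fitted with limma 3.58.1 (R 4.3.3, eBayes with trend, 1 mean per genotype), two-sided, with Benjamini-Hochberg adjustment over all genes at 0.05. The fit was tested on simulated counts that had the same extra spread for every gene and no tissue or sex differences. Changes were seeded only in well-expressed genes, so that test does not measure the power for small differences in these libraries. Same-numbered Het and KO libraries were treated as pairs in an added fit because their deviations correlated, not because a label pairs them. Ratios were compared by exact permutation (scipy 1.17.1). Lengths are exon unions of GENCODE M21, and promoters are from RefSeq GRCm38.p6. Values in each library are given for family leaders, members with at least 25% of a family, the 3 members with the smallest p per direction in each genotype comparison, 5 for the Cdhr1 comparison, and the 3 with the largest spread; further members were added after their values were seen. Results of 7 members and of 1 marker are not reported here. Members and lists were chosen with earlier results of these data known.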

Additional observations from a re-analysis of the deposited data

How the results depend on the processing

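Pseudocounts, filters on low values, rescaling, covariates, a fit of only the groups compared and leaving out each library left 0 members called in every comparison. The number of genes called was 1 in Het against WT and 1 in KO against Het when only those groups were fitted, and leaving out 1 library gave 0 to 1 in each genotype comparison and 9 to 51 for the Cdhr1 libraries. Same-numbered libraries correlated above 0.1 in all 3 pairs of Het and KO and in 1 of the 6 pairs with WT, so numbers were used as pairs only for KO against Het, where the paired fit called 0 genes; with the replicate block 0 genes were called in each genotype comparison and 72 for the Cdhr1 libraries, and Scn3a to Scn2a in KO minus WT stayed at 0.07. Signs turned for Cacna1f (-0.36), Hcn3 (0.12) and Kcns3 (0.80) in KO against WT without the 4 libraries of high Cdhr1, for Hcn3 (0.0341) and Kcns3 (0.41) with sex as a covariate, and for the ratios Scn3a to Scn2a (-0.40 in KO, -0.0402 in Het) and Scn8a to Scn2a (-0.45) without those 4 libraries, an alternative for the ratios chosen after seeing the data. Leaving out 1 library gave -0.0631 to 0.24 for Scn3a to Scn2a in KO, -0.0218 to 0.18 in Het, -0.11 to 0.23 for Scn8a to Scn2a, -1.75 to 0.35 for Kcng2 and -0.65 to 0.0338 for Kcns3. With sex as a covariate the Cdhr1 comparison called 1 gene, and Cacna1c (0.1004) and Kcnh7 (0.1249) turned sign. The cause was not tested. By coding length, also chosen after seeing the data, shares were 21.1% for Cacna1h, 59.9% for Hcn3, 48.4% for Kcna6, 60.6% for Kcnc1, 66.6% for Kcnd3, 16.0% for Kcnh4 and 90.9% for Scn3b. The planned length from a protein table was not run. Adjusted p-values of members ranged over the alternatives from 0.807 to 1 in KO against WT, 0.84 to 1 in Het against WT 0.451 to 1 in KO against Het and 0.0571 to 1 for the Cdhr1 libraries.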
